A study of Mus musculus with 9 samples.

Results

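Aminoacyl-tRNA synthetases load each transfer RNA (tRNA) with its amino acid. The 36 genes described here are the 20 whose products work mainly in the cytosol and 16 whose products work in mitochondria, out of 48440 genes in the deposited count tables. They were chosen by name, and each was found once through its gene identifier. Symbols follow the older convention, in which Aars stands for the gene now written Aars1. RNA was sequenced from J1 mouse embryonic stem cells of the genotype Suz12-AID, in which the Polycomb protein Suz12 carries a degron that makes auxin destroy it. The 9 libraries fall into Mock, Auxin (50 µM for 96 h) and Re-introduction (the same auxin treatment, then 4.5 h after washout), with 3 biological replicates in each group. All groups share the tagged genotype, a medium with serum, LIF, 2 kinase inhibitors (PD0325901 and CHIR99021), glutamine and non-essential amino acids, and no library of untagged cells was analysed here. What the Mock treatment contained, and whether the cells are 1 clone, is not given in the sources used here.

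Each cytosolic synthetase is specific for its amino acid, with Eprs joining the glutamate and proline enzymes in a single protein, and Farsa and Farsb forming the subunits of the phenylalanine enzyme. Part of the cytosolic set (Dars, Eprs, Iars, Kars, Lars, Mars1, Qars and Rars) sits in the multisynthetase complex, held together by the scaffold proteins Aimp1, Aimp2 and Eef1e1. Mitochondria use their own enzymes, encoded in the nucleus, although Gars and Kars supply both compartments. When cells sense a shortage of amino acids or another stress that leads to phosphorylation of eIF2α, the transcription factor ATF4 is translated and raises many amino acid genes, among them a well-known subset of the cytosolic synthetases. ATF4 works as a partner of C/EBP proteins at a composite sequence called the C/EBP-ATF response element.

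Total counts ran from 44341283 to 113931419 per library, and all 36 genes passed the filter on low counts. Embryonic stem cell markers (9 genes, among them Pou5f1, Nanog and Sox2) summed to 6080 to 6240 CPM (counts scaled to the library's TMM-adjusted total) in Mock, 7570 to 8120 in Auxin and 5850 to 5910 in Re-introduction. Of these 9, 7 were called higher in Auxin than in Mock and 2 lower, against 38.4% and 34.8% of all genes tested. The log2 fold changes of Sox2, Pou5f1 and Dppa5a were 1.00, -0.53 and -1.16. Primitive endoderm markers (6 genes) summed to 5.6 to 7.27 CPM in Mock, 21.4 to 22.3 in Auxin and 13.9 to 15.6 in Re-introduction, and fibroblast markers (6 genes) to 17.8 to 20, 39.1 to 46.4 and 37.4 to 38.8. Most of the fibroblast sum was Thy1, while Col1a1 stayed under 1 CPM in each group mean and Dcn and Lum were at 0 in all Auxin libraries. The part of these cells in the results was not tested, and in bulk RNA fewer cells of a type cannot be told apart from less RNA per cell. Suz12 mRNA, which the degron does not target, stood at 133.1 ± 6.62 CPM in Mock, 141.3 ± 16.9 in Auxin and 167.6 ± 4.47 in Re-introduction (mean ± SD, n = 3). Values also followed exon length differently between libraries. For 10177 protein-coding genes, the deviation of each gene from its own mean over the 9 libraries was set against length. Per doubling of length this deviation changed by -0.25 to -0.17 log2 units in Mock and 0.08 to 0.10 in Re-introduction. In Auxin it changed by 0.15 in replicates 1 and 3, against 0.01 in replicate 2. These slopes compare libraries with each other and do not give the change of CPM with length within 1 library.

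To compare genes with each other, CPM was divided by the merged exon length in kb. On this scale of level per length, the cytosolic genes had a median of 48.7 CPM per kb in Mock (range 9.55 to 161) and the mitochondrial genes one of 7.9 (range 1.81 to 59.7). Kars was highest in Mock at 160.6 ± 5.78 CPM per kb, followed by Gars at 135.6 ± 6.54, Nars at 102.4 ± 1.72 and Tars at 97.05 ± 1.09 (SD, n = 3), and the replicate ranges of these neighbours did not overlap. Further down, Lars2 overlapped with Lars and Hars, Aars with Mars1 and Eprs with Wars, and the run from Qars over Farsa and Iars to Vars had no gaps between neighbours. Cars, the cysteine enzyme, was the lowest cytosolic gene at 9.55 ± 0.177 CPM per kb, below the mitochondrial Lars2 (59.73 ± 38.0), Yars2 (21.48 ± 0.707), Aars2 (20.45 ± 0.85), Rars2 and Iars2. Nars2 at 1.811 ± 0.055 and Wars2 at 2.253 ± 0.095 were the lowest of all, and they kept the last places in the other groups.

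In Auxin the order changed at the top and in the middle. Gars (242.0 ± 20.3 CPM per kb) and Nars (213.6 ± 9.89) led, while Kars dropped to rank 8 at 67.44 ± 6.73. Sars moved from rank 19 to rank 7 and Qars from rank 15 to rank 22. After washout the order was again led by Gars (112.6 ± 3.99) and Nars (95.75 ± 2.86), with Kars at rank 3 and 83.59 ± 0.869. The cytosolic median went from 48.7 in Mock to 61.2 in Auxin and 35.1 in Re-introduction.

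**Figure D1:**
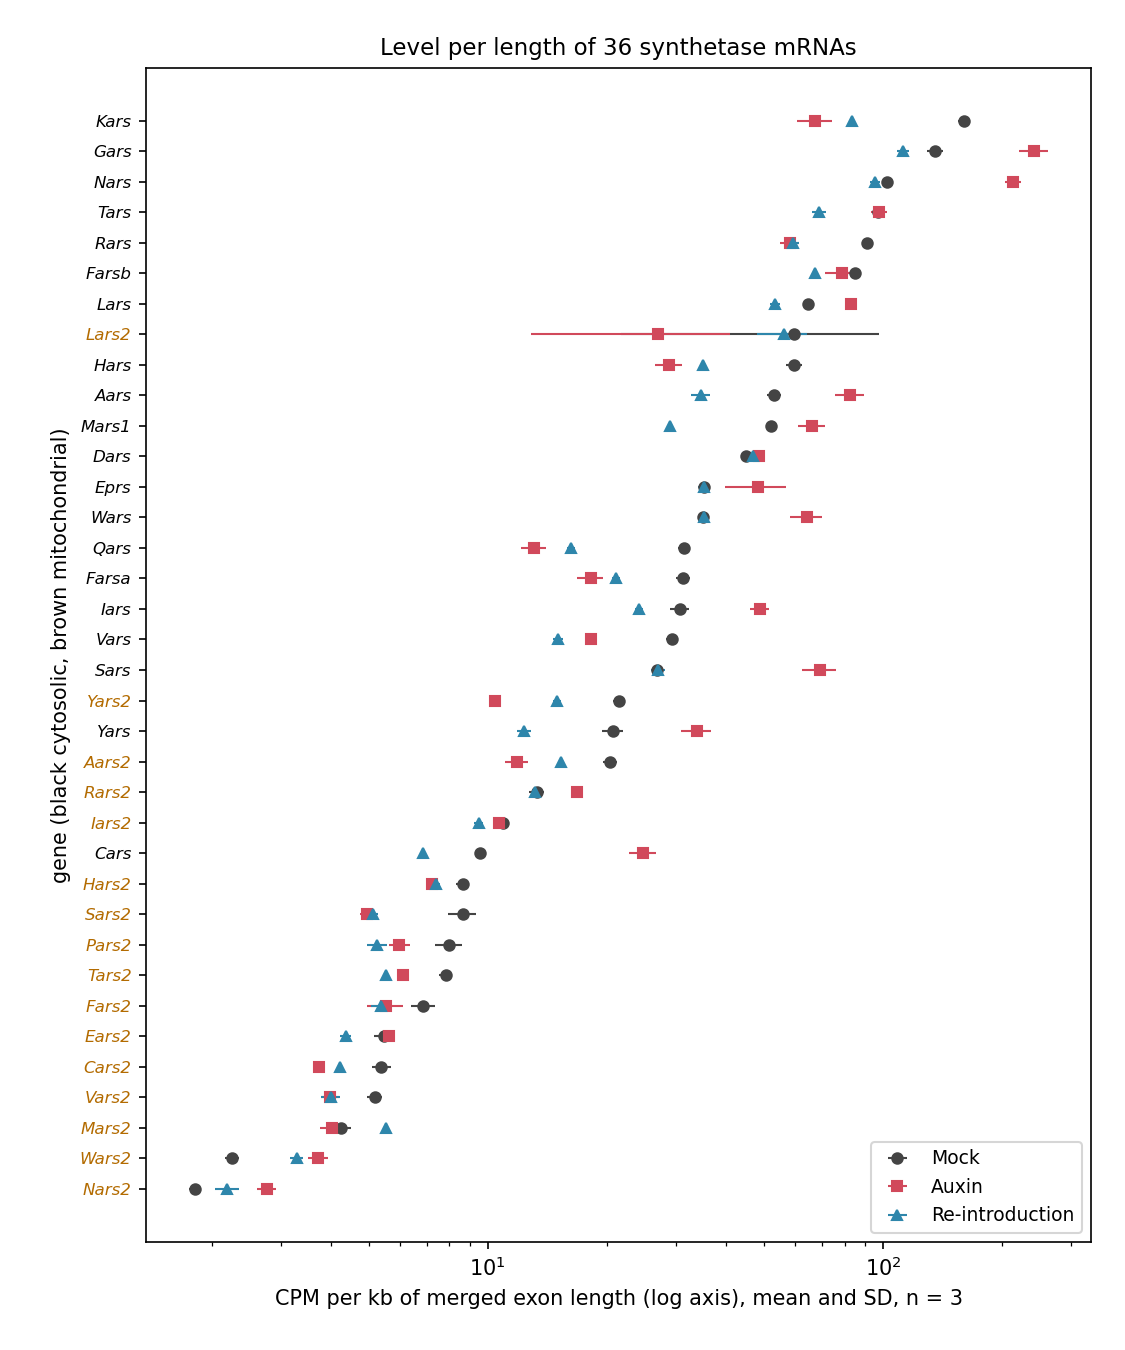
Level per length of the 36 synthetase genes in Mock (circles), Auxin (squares) and Re-introduction (triangles), as mean CPM per kb with SD (n = 3) on a log axis, ordered by the Mock level. Cytosolic genes (black names) mostly lie above mitochondrial genes (brown names), and Lars2 has the widest bars.

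The first comparison, Auxin against Mock, asks how these transcripts differ after 96 h of auxin, which is meant to deplete Suz12. These libraries do not measure Suz12 protein. Without untagged cells, effects of auxin itself cannot be told apart from those of Suz12 loss. The cytosolic synthetases split into genes that rose and genes that fell, as did the genes tested as a whole. Of 20 genes, 11 were called higher and 6 lower in Auxin (edgeR quasi-likelihood test, adjusted p under 0.05), where 73.2% of all 20838 genes tested were called, 38.4% higher and 34.8% lower. Under a stricter rule that also asks for a fold of at least 2, 3 were higher and 3 lower, against 19.8% and 12% of all genes. The share of falls and both shares under the stricter rule lay near those over all genes. The length trends of the libraries were left in this fit, and with length and GC trends removed 41.5% of all genes were called higher and 33.3% lower. The largest rises were those of Cars and Sars and the largest falls those of Qars and Kars, each by more than 2-fold. The median log2 fold change of the 20 genes was 0.35, against 0.05 for all genes tested.

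Sars, the serine enzyme (ENSMUSG00000068739.13, mm10 chromosome 3, 108424865 to 108445209), had 143.3, 134.4 and 136.1 CPM in Mock, 335.9, 397.1 and 337.3 in Auxin, against 136.3, 135.4 and 145.6 in Re-introduction. The Auxin libraries stood above all others, and the Mock and Re-introduction libraries overlapped. It rose in Auxin by 1.37 on the log2 scale (SE 0.071, edgeR adjusted p = 1.69e-08), or 2.59-fold. Cars, the cysteine enzyme (ENSMUSG00000010755.17, chromosome 7, 143557230 to 143600090), had 64.19, 62.01 and 62.4 CPM in Mock, 157.1, 177.6 and 154.3 in Auxin, against 45.48, 44.46 and 45.54 in Re-introduction. Its 3 groups did not overlap, with Re-introduction the lowest, and its rise in Auxin was 1.37 on the log2 scale (SE 0.060, edgeR adjusted p = 4.55e-09). Nars, the asparagine enzyme (ENSMUSG00000024587.9, chromosome 18, 64499665 to 64516557), had 274.7, 266.3 and 267.7 CPM in Mock, 552.2, 591.6 and 542.5 in Auxin, against 247.2, 248.1 and 260.7 in Re-introduction. It rose 2.09-fold (log2 fold change 1.06, SE 0.053, edgeR adjusted p = 1.18e-08), again with Auxin apart from both other groups.

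Among the genes that fell, Qars, the glutamine enzyme (ENSMUSG00000032604.16, chromosome 9, 108507706 to 108515941), had 213.8, 203.6 and 201.2 CPM in Mock, 81.82, 93.03 and 82.7 in Auxin, against 104.8, 106.1 and 109.2 in Re-introduction. The 3 groups did not overlap, and Auxin was the lowest. Its log2 fold change was -1.26 (SE 0.060, edgeR adjusted p = 8.43e-09), 2.40-fold lower than Mock. Kars, the lysine enzyme of cytosol and mitochondria (ENSMUSG00000031948.13, chromosome 8, 111993440 to 112011323), had 374.7, 348.8 and 360.0 CPM in Mock, 141.5, 169.1 and 144.5 in Auxin, against 185.9, 188.2 and 189.8 in Re-introduction. It followed the same order as Qars, with a log2 fold change of -1.25 (SE 0.069, edgeR adjusted p = 2.64e-08). Hars, the histidine enzyme (ENSMUSG00000001380.6, chromosome 18, 36766530 to 36783205), had 124.7, 115.1 and 115.1 CPM in Mock, 54.37, 62.32 and 54.48 in Auxin, against 68.76, 69.01 and 70.91 in Re-introduction. It was 2.07-fold lower in Auxin (log2 fold change -1.05, SE 0.064, edgeR adjusted p = 5.70e-08) and shares exon sequence with its neighbour Hars2, so that reads from the shared stretch were counted for neither.

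The other rises were 0.87 for Wars (tryptophan, SE 0.066), 0.84 for Gars (glycine, SE 0.068), 0.70 for Yars (tyrosine, SE 0.072), 0.68 for Iars (isoleucine, SE 0.060) and 0.64 for Aars (alanine, SE 0.070) on the log2 scale. Eprs, Lars and Mars1 were called higher with smaller changes of 0.45, 0.36 and 0.34. Mars1, the methionine enzyme, overlaps exons of Ddit3, itself higher in Auxin by 3.45 on the log2 scale. Eprs had 959.5, 700.0 and 966.2 CPM in the Auxin libraries against 618.9 to 654.8 in Mock, the widest relative spread of any cytosolic gene (17.3% of the mean). The other falls were -0.78 for Farsa (phenylalanine, SE 0.062), -0.68 for Vars (valine, SE 0.049) and -0.65 for Rars (arginine, SE 0.055). Farsb, which encodes the partner subunit of Farsa, was not called, with 222.1 ± 7.85 CPM in Mock and 206.6 ± 19.0 in Auxin. Tars (threonine, 255.8 ± 2.87 and 258.3 ± 12.2 CPM) and Dars (aspartate, 196.5 ± 0.334 and 211.4 ± 4.15 CPM) were not called either.

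**Figure D2:**
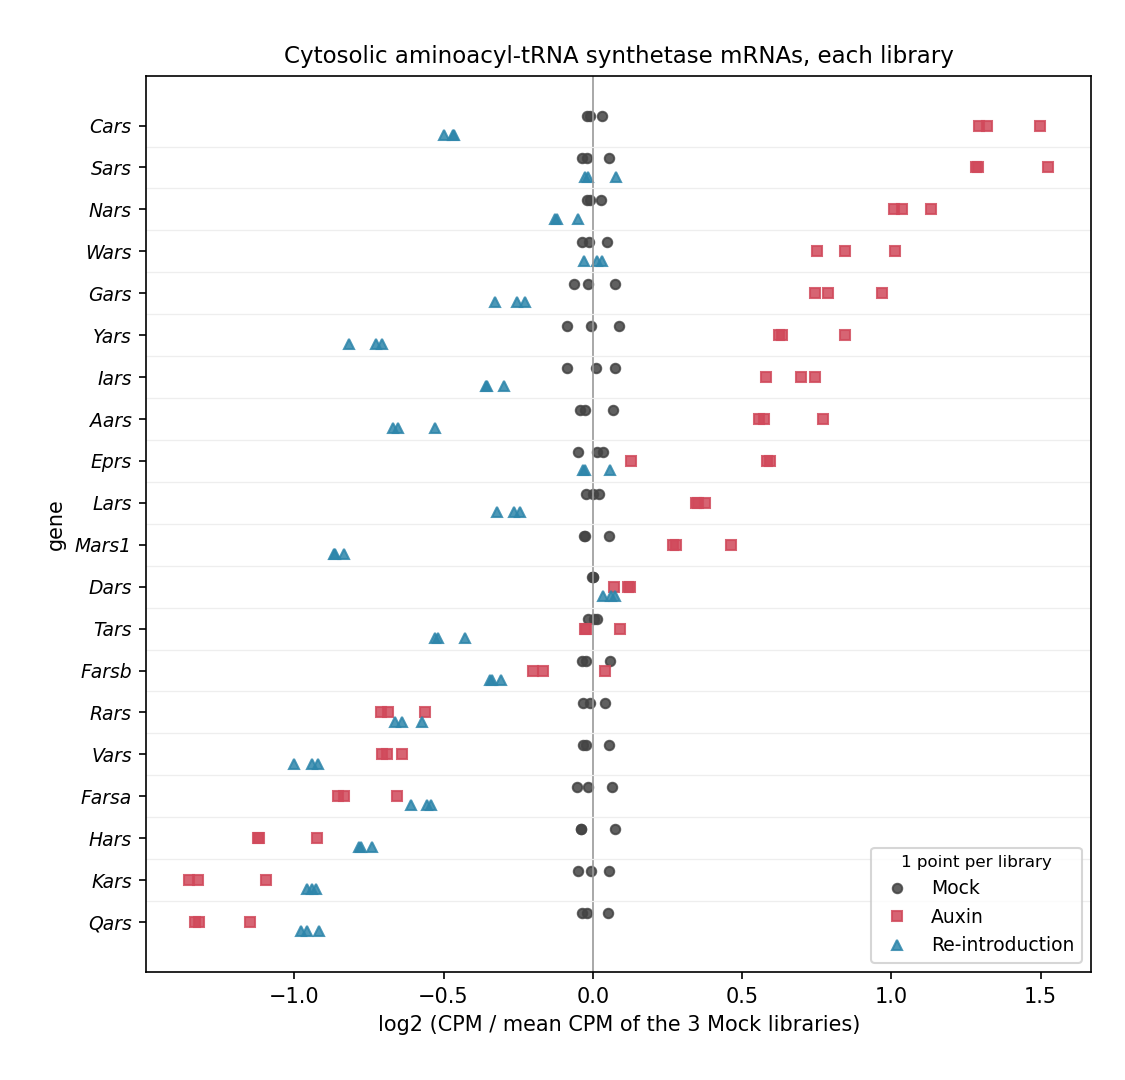
CPM of the 20 cytosolic synthetase genes in each of the 9 libraries, as log2 of the ratio to the Mock mean, with genes ordered by their change in Auxin. Auxin points (squares) run from right of Mock for Cars and Sars to left of it for Kars and Qars, while Re-introduction points (triangles) lie among the Mock points for Sars, Wars and Eprs, slightly right of them for Dars and left of them for the other genes.

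The split followed a grouping written from general knowledge of which synthetases are usually named as ATF4 targets (Aars, Cars, Eprs, Gars, Iars, Lars, Mars1, Nars, Sars, Tars, Wars and Yars). Of these 12 genes 11 rose and 0 fell (median log2 fold change 0.69), and Tars was the one not called. Of the other 8 cytosolic genes 0 rose and 6 fell (median -0.73), where 38.4% of all genes tested were called higher and 34.8% lower. For these 2 counts of 0, edgeR gave 0 and 1 genes at an unadjusted p under 0.05 and the DESeq2 Wald test gave 0 and 0 calls. The grouping was made with earlier results on stress genes in these libraries known, so the split by this list is a description. With length and GC trends removed, as described further on, 11 of the 12 were called higher and 1, Eprs, lower. The class of the enzyme fold did not separate them in the same way. Of 9 class I genes 6 rose and 3 fell, and of 10 class II genes 4 rose and 3 fell. Both class II shares and the class I falls lay near the shares over all genes. Eprs belongs to both classes and is in neither count.

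Because 11 of these 12 genes moved together, their promoters were searched for the letters of the C/EBP-ATF response element, TGATGNAA, on both strands, in windows from 250 bases before to 50 after the RefSeq transcription start (GRCm38.p6, which is mm10). Windows were found for 27 of the 36 genes (not for Cars, Hars, Lars, Nars, Rars, Vars, Wars, Hars2 and Pars2). The letters occurred in 5 of the 8 ATF4-listed genes with a window, in 0 of the 5 other cytosolic genes and in 0 of the 14 mitochondrial genes. Over all 27025 genes with such windows, 4.51% held a match. The list names genes usually given as ATF4 targets, so matches among them are in part built in and are a description. One match for each of these 5 genes is printed below 5′ to 3′ on the gene's strand, with the matching letters in capitals and 10 bases on either side. All but the match of Yars read as the reverse complement.
Aars, chr8:111033841-111033868, plus strand, bases 10 to 17 of the transcript: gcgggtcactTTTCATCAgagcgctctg
Gars, chr6:55037961-55037988, plus strand, 30 to 23 bases before the start: ggctgcgctaTTTCATCAtgcaccgggc
Iars, chr13:49682127-49682154, plus strand, bases 8 to 15 of the transcript: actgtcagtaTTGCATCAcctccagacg
Tars, chr15:11399656-11399683, minus strand, 15 to 8 bases before the start: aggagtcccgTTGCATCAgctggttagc
Yars, chr4:129189896-129189923, plus strand, bases 4 to 11 of the transcript: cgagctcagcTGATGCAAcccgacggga

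Of the 5 genes with a match, 4 rose in Auxin, while Tars, whose match is the closest before its start, was not called. Sars, the gene of the second-largest rise, had no match in its window. Eprs and Mars1, also called higher, had none either. The 250 bases before the start of Sars are shown because it rose further than the 5 genes with a match. These are letters in a window, not measured binding.
Sars, chr3:108445260-108445509, minus strand: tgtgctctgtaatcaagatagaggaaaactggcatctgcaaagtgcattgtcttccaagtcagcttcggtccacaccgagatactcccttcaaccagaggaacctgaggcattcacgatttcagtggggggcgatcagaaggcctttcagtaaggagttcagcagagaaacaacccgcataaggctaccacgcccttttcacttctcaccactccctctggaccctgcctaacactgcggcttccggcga

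Of the 8 enzymes of the multisynthetase complex, 4 were called higher (Eprs, Iars, Lars and Mars1), 3 lower (Kars, Qars and Rars) and Dars was not called, shares near the 38.4% and 34.8% of all genes. Eprs was among those called lower (-0.43) once length and GC trends were removed. Of its 3 scaffold genes, 3 were called lower, with Aimp2 going from 41.96 ± 0.295 to 22.65 ± 1.35 CPM (log2 fold change -0.89, SE 0.062, edgeR adjusted p = 1.70e-07) and Eef1e1 from 101.4 ± 1.55 to 75.03 ± 7.46 CPM (-0.44). Aimp2 shares exon sequence with Eif2ak1, a kinase gene that was also lower.

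Of the 16 mitochondrial synthetases, 3 were called higher and 10 lower in Auxin, against 38.4% and 34.8% of all genes, and their median log2 fold change was -0.34. Yars2, the mitochondrial tyrosine enzyme (ENSMUSG00000022792.16, chromosome 16, 16302965 to 16309640), had 69.65, 68.02 and 65.24 CPM in Mock, 31.88, 33.73 and 33.22 in Auxin, against 46.02, 48.36 and 47.06 in Re-introduction. The groups did not overlap, and Yars2 was 2.05-fold lower in Auxin (log2 fold change -1.04, SE 0.051, edgeR adjusted p = 1.16e-08). Sars2, the mitochondrial serine enzyme (ENSMUSG00000070699.5, chromosome 7, 28741992 to 28753871), had 30.52, 26.06 and 29.25 CPM in Mock, 16.68, 16.89 and 15.69 in Auxin, against 16.98, 16.44 and 17.5 in Re-introduction. It was lower in Auxin by a log2 fold change of -0.80 (SE 0.069, edgeR adjusted p = 9.29e-07), and the Re-introduction libraries overlapped with Auxin. Aars2 (-0.79, SE 0.060) and Cars2 (-0.53, SE 0.055) fell as well.

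Lars2, the mitochondrial leucine enzyme (ENSMUSG00000035202.7, chromosome 9, 123366940 to 123462664), was the least reproducible gene of the set. It had 398.4, 118.6 and 178.4 CPM in Mock, 167.8, 75.89 and 70.23 in Auxin, against 248.8, 185.3 and 219.8 in Re-introduction. Mock and Auxin overlapped, and the SD was 63.6% of the mean in Mock and 52.4% in Auxin, where the next-widest mitochondrial genes had 8.02% (Sars2) and 10.5% (Fars2). Its log2 fold change of -1.15 (SE 0.42, edgeR adjusted p = 0.0279) shrank to -0.52 and lost the call without Mock replicate 1 (edgeR adjusted p = 0.195). Without Auxin replicate 3 the call was lost as well (-0.93, edgeR adjusted p = 0.0905), and over 19 alternatives 5 did not keep it.

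The 3 mitochondrial genes that rose were Wars2 (log2 fold change 0.72, SE 0.064), Nars2 (0.61, SE 0.068) and Rars2 (0.34, SE 0.051). Wars2 went from 13.40 ± 0.562 to 22.10 ± 1.27 CPM and Nars2 from 12.61 ± 0.386 to 19.22 ± 1.03 CPM. Fars2, Hars2, Pars2, Tars2 and Vars2 were called lower with log2 fold changes between -0.42 and -0.26. Ears2, Iars2 and Mars2 were not called, with Mock means of 28.07, 97.13 and 47.92 CPM and Auxin means of 29.01, 94.96 and 45.49 CPM.

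**Figure D3:**
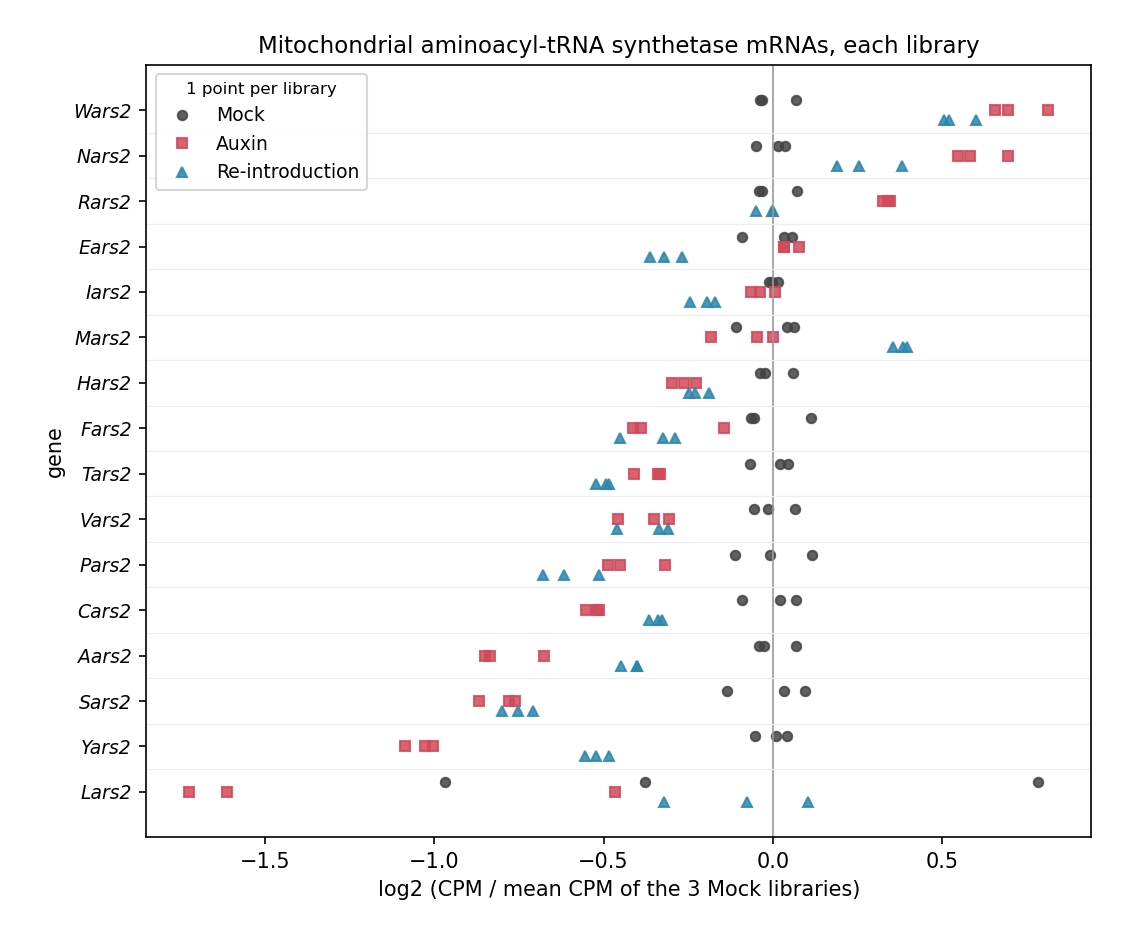
CPM of the 16 mitochondrial synthetase genes in each library, as log2 of the ratio to the Mock mean, ordered by the change in Auxin. Most Auxin points (squares) lie left of Mock, Wars2, Nars2 and Rars2 lie right of it, and the libraries of Lars2 are spread in every group.

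For 13 amino acids the cytosolic and the mitochondrial enzyme each have a single gene in the set. In Auxin against Mock the cytosolic gene rose while the mitochondrial gene fell in 5 pairs (alanine, cysteine, leucine, serine and tyrosine), the leucine pair resting on Lars2. The reverse held for arginine, where Rars fell and Rars2 rose. Both rose for asparagine and tryptophan, both fell for histidine and valine, and in the remaining 3 pairs at least 1 gene was not called. Of all genes tested, 38.4% were called higher and 34.8% lower. The counts of pairs also follow from the 11 of 20 cytosolic genes called higher and the 10 of 16 mitochondrial genes called lower. Whether pairing adds to these counts was not tested.

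The genes called higher had a median merged exon length of 5142 bp (cytosolic) and 5946 bp (mitochondrial), and those called lower 3883 and 3614.5 bp. When per-library trends of length and GC content were removed, 11 cytosolic genes were still called higher and 7 lower. Eprs, the longest gene with 18102 bp of merged exons, turned from 0.45 to -0.43 (SE 0.045, edgeR adjusted p = 3.44e-06), and Tars was called higher at 0.09. Aars kept its call at 0.30, and lost it at 0.18 (SE 0.10, edgeR adjusted p = 0.122) when the length trend alone was removed. Iars2 and Mars2, not called before, were called lower at -0.47 and -0.73, and Fars2 lost its call at -0.06. Under scaling by total counts Iars2 was instead called higher (0.18), as were Ears2 (0.26), Dars (0.32) and Tars (0.22), while Fars2 and Hars2 were not called. Under removal of trends or that scaling, only Aars, Eprs, Fars2, Hars2 and Lars2 lost or reversed a call, Lars2 under the scaling. All other called genes, Cars, Sars, Nars, Kars, Qars, Hars and Yars2 among them, kept their direction and call. After removal of both trends Cars was at 1.17 and Qars at -1.50.

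**Figure D4:**
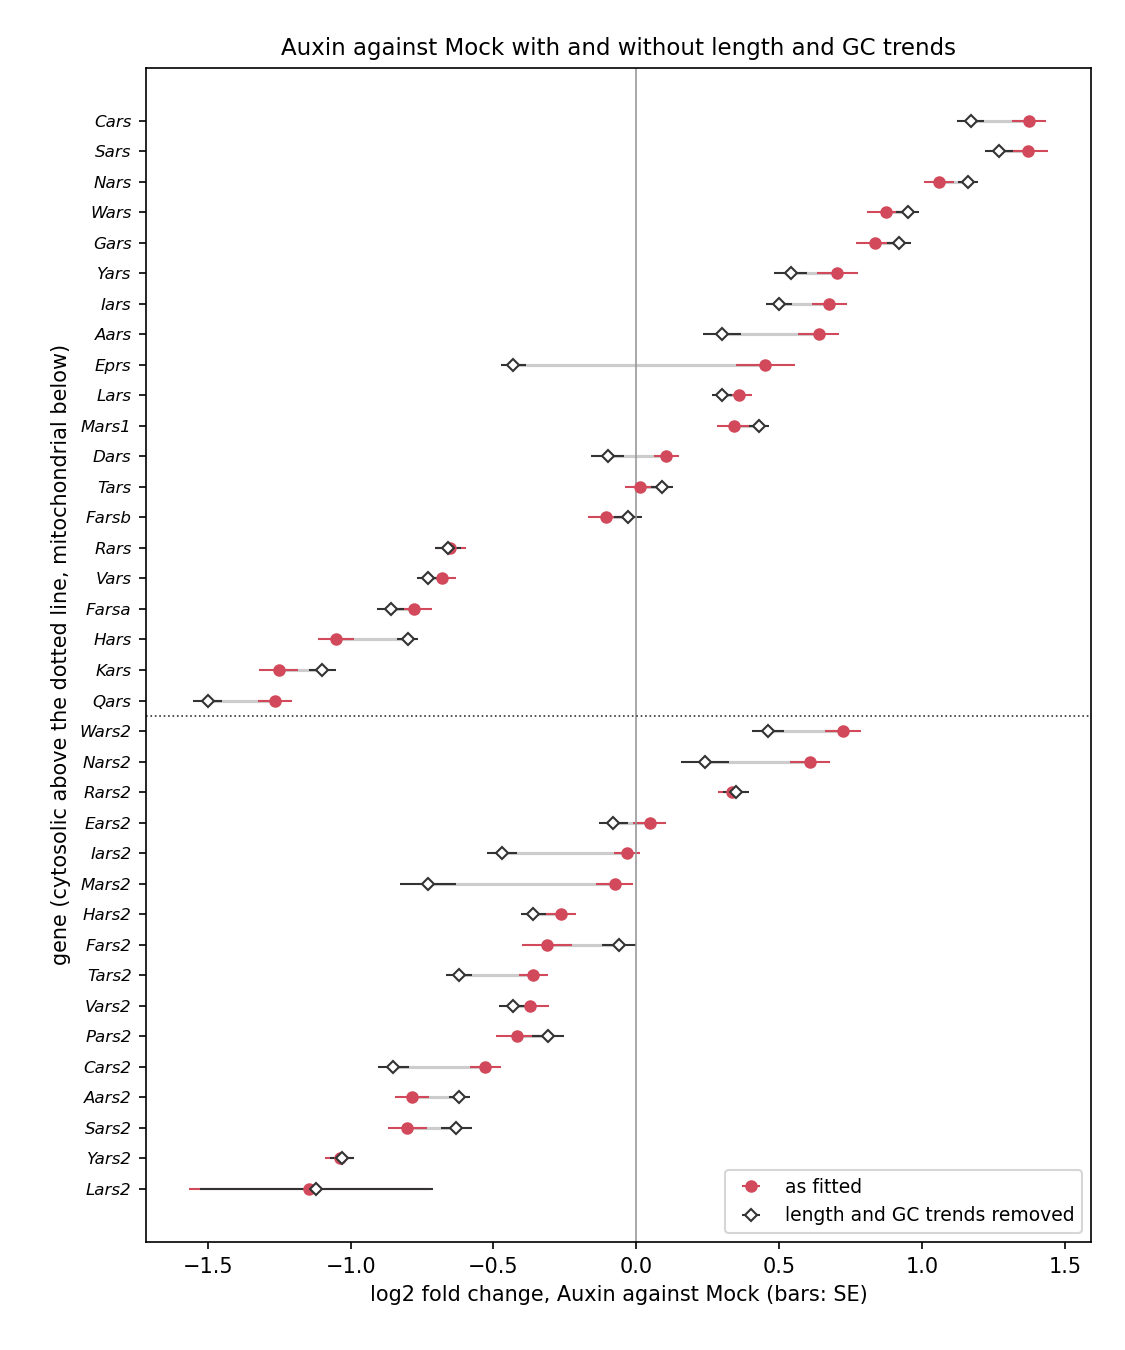
Log2 fold change in Auxin against Mock for each gene as fitted (filled circles) and after removal of per-library length and GC trends (open diamonds), with SE. Eprs changes sign from 0.45 to -0.43 and Mars2 moves from near 0 to -0.73, while Cars and Sars stay the highest and Kars and Qars the lowest of the cytosolic genes, with Sars above Cars after removal.

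Auxin replicate 2 had the highest CPM of the 3 Auxin libraries in 18 of the 20 cytosolic and 11 of the 16 mitochondrial genes, rising and falling ones alike, while for Eprs and Dars it had the lowest. Without it, 12 cytosolic genes were called higher and 7 lower in Auxin against Mock, with Dars and Farsb added, and the mitochondrial counts stayed at 3 and 10.

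Re-introduction against Auxin asks what moved within 4.5 h of auxin washout. In both comparisons with Re-introduction, a return of Suz12 protein, which was not measured, cannot be told apart from the removal of auxin or from the washout itself. All 12 ATF4-listed cytosolic genes were lower in Re-introduction than in Auxin, while 4 of the genes that had been low in Auxin moved part of the way up. Of the 20 cytosolic genes 14 were called lower and 4 higher, where 50.9% of all genes tested were called, 25.5% lower and 25.5% higher. At a fold of at least 2, 8 cytosolic genes were lower and 0 higher, against 6.82% and 4.16% of all genes (4 higher by edgeR at an unadjusted p under 0.05 and 4 under the DESeq2 Wald test, at any fold). Their median log2 fold change was -0.57, against 0.00 for all genes tested. Since this comparison shares the Auxin libraries with the first, the opposite signs of both are in part built in.

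The largest falls after washout were those of Cars (log2 fold change -1.85, SE 0.061, edgeR adjusted p = 3.13e-09), Yars (-1.45, SE 0.073, edgeR adjusted p = 5.95e-08) and Sars (-1.36, SE 0.071, edgeR adjusted p = 8.25e-08). Yars had 190.2, 221.6 and 191.3 CPM in Auxin, against 74.63, 70.06 and 75.6 in Re-introduction, below its Mock values of 131.2, 122.8 and 116.2. Aars (-1.25), Mars1 (-1.20), Nars (-1.16), Gars (-1.10) and Iars (-1.01) were also more than 2-fold lower. Smaller falls were those of Wars (-0.87), Lars (-0.63), Tars (-0.51) and Eprs (-0.45). Tars had 251.6, 272.4 and 251.0 CPM in Auxin, against 178.4, 177.4 and 190.2 in Re-introduction, with no overlap, while its Mock and Auxin libraries had overlapped. Outside the ATF4 list, Vars (-0.27) and Farsb (-0.23) were called lower. The call of Farsb was lost without Re-introduction replicate 2 (-0.21).

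The 4 cytosolic rises after washout were Qars (0.31, SE 0.059, edgeR adjusted p = 1.09e-03), Kars (0.31, SE 0.068), Hars (0.29, SE 0.064) and Farsa (0.21, SE 0.062) on the log2 scale. All 4 stayed below Mock. The call of Farsa was lost without Auxin replicate 1, without Re-introduction replicate 1 or without Re-introduction replicate 3, and under scaling by total counts. Rars (187.8 ± 10.5 and 191.4 ± 6.14 CPM) and Dars (211.4 ± 4.15 and 204.5 ± 3.01 CPM) were not called.

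Among mitochondrial genes, 4 were called higher and 6 lower after washout, against 25.5% in either direction over all genes. Yars2 rose by 0.52 (SE 0.051, edgeR adjusted p = 1.01e-05), Mars2, the methionine enzyme, by 0.45 (SE 0.065), Aars2 by 0.37 (SE 0.060) and Cars2 by 0.18 (SE 0.055) on the log2 scale. Mars2 had 46.36, 42.17 and 47.94 CPM in Auxin, against 62.55, 63.09 and 61.31 in Re-introduction, above its Mock values of 44.42, 50.03 and 49.3, and lost the call when length and GC trends were removed (0.16). Lars2 was 1.06 higher (SE 0.42) without passing the test (edgeR adjusted p = 0.0544), and passed it under 9 of 19 alternatives. The genes called lower were Ears2 (-0.36), Rars2 (-0.35), Nars2 (-0.34), Wars2 (-0.18), Iars2 (-0.17) and Tars2 (-0.14). The calls of Cars2, Tars2 and Wars2 were lost when single libraries of either group were left out: Cars2 without Auxin replicate 1 and without Re-introduction replicates 1 or 3, Tars2 without Auxin replicate 1 and without any 1 of the Re-introduction replicates, and Wars2 without Auxin replicate 3 and without Re-introduction replicates 1 or 2.

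Re-introduction against Mock asks what still differs after washout. Of the 20 cytosolic synthetases, 0 were called higher than in Mock and 15 lower, against 34.7% and 33.4% of all genes tested, 68.1% in all (edgeR, with 0 higher at an unadjusted p under 0.05, and 0 higher under the DESeq2 Wald test). The cytosolic median was -0.48, against 0.03 for all genes. By the rule with a fold of at least 2, 0 were lower, against 7.43% of all genes, and 0 higher, against 15%. Under scaling by total counts Dars was called higher (0.19), and with length and GC trends removed Wars was (0.15).

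The genes furthest below Mock came from both parts of the split. Vars, whose product is bound to the elongation factor complex eEF1, had 170.1, 160.3 and 161.1 CPM in Mock, 100.3, 105.1 and 101.6 in Auxin, against 85.43, 86.47 and 81.93 in Re-introduction, and so moved down in both steps (log2 fold change against Mock -0.95, SE 0.050, edgeR adjusted p = 4.95e-08). Qars (-0.95), Kars (-0.94), Hars (-0.77), Rars (-0.62) and Farsa (-0.57) were below Mock in Auxin and in Re-introduction. All of these but Rars had moved part of the way up after washout. Mars1 (-0.86, SE 0.060), Yars (-0.75, SE 0.072) and Aars (-0.62, SE 0.071) had been above Mock in Auxin and were below it after washout. Cars (-0.48), Tars (-0.49), Iars (-0.34), Farsb (-0.33), Lars (-0.28) and Gars (-0.27) were called lower as well, Gars not under scaling by total counts (-0.14).

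Eprs, Nars, Sars and Wars were back near their Mock level and were not called. Sars stood at 139.1 ± 5.62 CPM against 137.9 ± 4.76 in Mock, Wars at 121.2 ± 2.65 against 120.8 ± 3.59, Eprs at 640.1 ± 22.6 against 640.0 ± 18.7 and Nars at 252.0 ± 7.54 against 269.6 ± 4.52. With the length trend removed, alone or with the GC trend, Eprs was called lower than Mock at -0.88 and -0.91. Nars was called lower (-0.12) without Auxin replicate 2.

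Of the 16 mitochondrial genes, 11 were called lower and 3 higher than Mock, against 33.4% and 34.7% of all genes tested. Sars2 (-0.75, SE 0.069), Pars2, the proline enzyme (-0.60, SE 0.076), and Yars2 (-0.52, SE 0.051) were the lowest, followed by Tars2 (-0.50), Aars2 (-0.42), Vars2 (-0.37), Cars2 (-0.35), Fars2 (-0.35), Ears2 (-0.32), Hars2 (-0.22) and Iars2 (-0.20). Wars2 (0.54, SE 0.064, edgeR adjusted p = 1.95e-05), Mars2 (0.38, SE 0.065) and Nars2 (0.27, SE 0.069) were higher. With length and GC trends removed Mars2 turned to -0.58 (edgeR adjusted p = 2.57e-04) and Nars2 lost its call at -0.11, so that Wars2 alone was called higher. Lars2 (218.0 ± 31.8 CPM against 231.8 ± 147.0 in Mock) and Rars2 (36.46 ± 0.689 against 36.90 ± 1.58) were not called.

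The other genes of the amino acid and stress pathways were taken from lists. These lists were chosen with earlier results of these data known, so their counts are a description. Of 17 genes listed under the integrated stress response, 15 were called higher and 1 lower in Auxin (median log2 fold change 2.19). After washout 13 were called lower and 2 higher (median -1.80). Of all genes tested, 38.4% were called higher and 34.8% lower in Auxin, and 25.5% in either direction after washout. Atf4 itself had 241.4 ± 12.0 CPM in Mock, 597.4 ± 67.5 in Auxin and 171.2 ± 1.83 in Re-introduction. The largest rises in Auxin were those of Chac1, a glutathione-degrading enzyme (6.30, SE 0.16, edgeR adjusted p = 1.36e-10), and Atf3, a stress-induced transcription factor (5.92, SE 0.17, edgeR adjusted p = 2.99e-10). Of 20 genes of amino acid synthesis and transport, 18 were called higher and 2 lower in Auxin (median 1.09), led by the glycine transporter Slc6a9 (4.50) and the neutral amino acid transporter Slc1a4 (2.99), and all 20 were called lower after washout (median -1.46).

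Further lists, chosen in the same way, hold genes whose products act beside the synthetases. Their counts in Auxin stand against the same 38.4% higher and 34.8% lower of all genes. Of 5 cytosolic elongation factor genes, 3 were called higher and 2 lower in Auxin (median 0.25), with Eef1d (-1.57, SE 0.076) and Eef1g (-0.90, SE 0.090), subunits of eEF1, the largest changes. Of 13 genes of mitochondrial translation factors and tRNA amidation, 8 were called lower and 1 higher (median -0.28), and the mitochondrial elongation factor Tufm went from 52.39 ± 3.59 to 16.64 ± 2.80 CPM (-1.66), with Tsfm, its exchange factor, at -0.75. Of 16 genes of tRNA end processing and export, 11 were called lower and 3 higher (median -0.54), led by Pop1 (-1.58), of the RNase P complex. Of 6 synthetase-like and proofreading genes, 4 were called lower and 2 higher (median -0.40), with Sepsecs, of selenocysteine synthesis, at 0.76 and Dtd1, a deacylase of mischarged tRNA, at -0.56. After washout the medians of these 4 lists were -0.28, -0.07, 0.30 and -0.30, in that order.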

How the data were processed

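Polyadenylated RNA from 9 samples was sequenced as paired-end reads, per the labels' protocols. The authors deposited raw counts, which featureCounts 2.0.6 assigned to the exons of each gene of an mm10 annotation, per the file headers. Pairs were not counted as single fragments and no strand was set, per the same headers, so each mate counts, and reads of overlapping genes cannot be assigned by strand. The submitters' processing notes also name Trim Galore 0.6.10, FastQC 0.12.1, Bowtie2 2.5.3 and SAMtools 1.20, with no role. Reads that fall on exons of more than 1 gene are left out by the counter's default. Among the 36 genes, 12 share exon sequence with another gene.

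From these counts, edgeR 4.0.16 (R 4.3.3) kept 20838 genes with filterByExpr, scaled libraries by TMM (factors 0.905 to 1.08) and fitted 1 quasi-likelihood model with group as the only term to all 9 libraries. Tests were two-sided, with p-values adjusted by Benjamini-Hochberg over all genes tested and a threshold of 0.05. SEs were derived from the F statistic. CPM are TMM-scaled, and level per length is CPM per kb of merged exons, which understates genes with long, rarely used exons. The labels call the replicates biological and say nothing of separate days, so p-values measure the spread between these samples.

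The fits were tested on simulated data. There, 200 of 20838 genes were changed by 2-fold in Auxin. A trend with length alone, placed in the Mock libraries and left in the fit, gave 5709 calls, 96.6% of them false. Its removal gave 204 calls, 9.8% of them false. Far more genes are called in the real libraries, so these shares do not carry over to them. The simulated trend had the form that the removal fits, so removal was not tested on other trends. It was also the same in every Mock library and absent from the other groups, while the real slopes differed within Auxin and were not flat in Re-introduction. Small changes in comparisons with Mock can depend on such trends.

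The members, lists and groupings were chosen with earlier results of these data known. A log2 fold change is printed for members called at an absolute value of at least 0.5, and values library by library for the 6 cytosolic and 3 mitochondrial members with the largest change in Auxin against Mock. Smaller calls and the library values of Eprs, Mars2, Tars, Vars and Yars were added after their values were seen. Of each other list, the 2 called members with the largest change are named, with Atf4 and Ddit3 added. A list member and a sequence that this rule or the motif search would give are not reported here. Promoter sequences are those of RefSeq for GRCm38.p6. Alternatives were DESeq2 1.42.0 size factors and its Wald test, total counts, other filters, halved counts, fits of 2 groups, a replicate block, removal of length and GC trends (splines with 4 degrees of freedom) and each library left out.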

Additional observations from a re-analysis of the deposited data

How the results depend on the processing

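Under 19 alternatives per comparison, 25 of the 36 genes kept their call in Auxin against Mock, 27 in Re-introduction against Auxin and 25 in Re-introduction against Mock. Scaling by total counts shifted the all-gene median in Auxin against Mock from 0.05 to 0.26 on the log2 scale, so that 63.3% of called genes were higher in place of 52.4%, and it gave 5 mitochondrial genes called higher in place of 3, with Ears2 and Iars2 added. The same scaling gave 59.9% in Re-introduction against Mock in place of 50.9% and a median of 0.16 in place of 0.03, with 1 cytosolic gene called higher in place of 0, and 40.1% in Re-introduction against Auxin in place of 50.0%. With the length trend removed, alone or together with the GC trend, 1 mitochondrial gene was called higher in Re-introduction against Mock in place of 3, and with both removed 1 cytosolic gene was called higher. These removals reversed Eprs in Auxin against Mock (-0.38 for length alone, -0.43 for both), and Mars2 (-0.21, -0.58) and Nars2 (-0.05, -0.11) in Re-introduction against Mock; the cause was not tested, and a trend removed in this way can hold real change of long genes. Leaving out single libraries gave 11 to 12 cytosolic genes higher and 6 to 7 lower in Auxin against Mock. It gave 13 to 14 lower in Re-introduction against Auxin and 15 to 16 lower in Re-introduction against Mock.

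Correlations of deviations from the group mean ran from -0.55 to 0.45 between same-numbered libraries and from -0.59 to 0.65 between different-numbered ones. Deviations from a mean of 3 libraries are tied to each other, so this cannot settle whether the replicate numbers pair the samples. With the replicate block, 11 cytosolic genes were called higher and 6 lower in Auxin against Mock, 14 lower in Re-introduction against Auxin and 15 lower in Re-introduction against Mock, and the calls that changed among the members were those of Lars2 (1.19, now higher) and Tars2 (-0.14, lost), both in Re-introduction against Auxin. Depth did not limit these genes, the lowest value of which was 10.67 CPM (Fars2). Since each mate was counted, counts were also halved, which changed the calls of Dars in Auxin against Mock and Pars2 in Re-introduction against Auxin. Halving also left 18937 genes past the filter in place of 20838. Dars moved from 0.11 to 0.14, while its SE was 0.044 before and 0.043 after. Whether the calls changed through the filter and scaling or through the double count was not tested.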
